A study of Mus musculus with 24 samples.

Results

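The interferon-induced genes and interferon regulatory factors (IRFs) of quadriceps muscle were taken as the 61 genes, of 14159 with a symbol in the deposited matrix, that carry a name of the Ifit, Ifitm, Ifi, Gbp, Oas, Irf, Irgm, Mx, Isg, Tgtp or interferon-activated Stat families or are Ifih1, Igtp, Iigp1, Gvin1, Rsad2, Usp18 or Cmpk2. The members were found by name among the genes that the matrix keeps (above 1 CPM in at least 3 libraries). The names were chosen with earlier results of these data known. Bulk RNA of whole quadriceps was sequenced in 24 libraries, 3 in each of 8 groups, from 2 inbred strains. C57BL/6 (B6) mice were compared with MRL/MpJ (MRL) mice, a strain known for wound healing with little scar and for a tendency to autoimmunity. In each strain, 1 group was left uninjured and 3 groups received a volumetric muscle loss (VML) injury filled with saline (the control injury), with decellularized extracellular matrix (ECM) or with polyethylene powder (PE). Injured muscle was collected at day 21, and the labels give no day for the uninjured groups. Per the methods of the study, the mice were females of 6 to 8 weeks at surgery. The replicate numbers name the libraries of a group, and all levels are log2 CPM (read counts of a gene scaled to a common library total), on which a count of 0 lies at -3.65.

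Type I and type II interferons bind their receptors on the cell surface, and the receptor-bound Janus kinases then phosphorylate STAT transcription factors. A complex that holds STAT2 and IRF9 binds the interferon-stimulated response element (ISRE) of antiviral genes, while STAT homodimers bind the gamma-activated sequence (GAS) of genes such as Irf1. In muscle injury the pathway is known mainly from infiltrating leukocytes, but muscle fibres, fibroblasts and endothelial cells carry the receptors as well.

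The promoters of 7 members are shown because they hold the letters that the interferon-activated factors are known to bind, and because their genes carry the comparisons that follow. Each sequence runs 5′ to 3′ along the strand of its gene, and capitals mark a match to the ISRE letters (GAAA, then NN, then GAAA) or, in Irf8, to the GAS letters TTCNNNGAA, on either strand. The sequences come from RefSeq promoter windows (250 bases before to 50 after a gene's start) with the build GRCm38.p6, and the stretches shown, all upstream of the annotated start, were placed on GRCm39 by an exact match.
Ifit1, chr19:34618160-34618219, plus strand: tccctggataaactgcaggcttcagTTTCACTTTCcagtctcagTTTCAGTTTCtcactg
Ifit3, chr19:34560748-34560807, plus strand: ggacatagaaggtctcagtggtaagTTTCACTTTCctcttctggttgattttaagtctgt
Isg15, chr4:156285319-156285378, minus strand: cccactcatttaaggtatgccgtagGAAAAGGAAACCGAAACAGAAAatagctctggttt
Rsad2, chr12:26506537-26506596, minus strand: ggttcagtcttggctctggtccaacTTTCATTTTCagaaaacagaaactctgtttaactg
Stat2, chr10:128106120-128106179, plus strand: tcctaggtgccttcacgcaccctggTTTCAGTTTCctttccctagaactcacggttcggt
Oas3, chr5:120915765-120915824, minus strand: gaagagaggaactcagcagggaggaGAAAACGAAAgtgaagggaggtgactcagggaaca
Irf8, chr8:121462901-121462959, plus strand: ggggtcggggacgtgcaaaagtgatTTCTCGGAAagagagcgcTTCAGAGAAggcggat
Of the 61 members, 45 had at least 1 promoter window, and a gene was counted if any of its windows held the letters. The ISRE letters were found for 24 of these members (53.3%) against 1079 of all 27025 genes with a window (3.99%). The GAS letters were found for 16 of the 45 members (35.6%) against 2582 of 27025 genes (9.55%). Counted from the start of the gene, the first match shown began at -104 in Ifit1, -156 in Ifit3, -78 in Isg15, -120 in Rsad2, -222 in Stat2, -75 in Oas3 and -171 in Irf8. A match of letters is a description of the sequence and was not measured as binding.

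Several features of the whole series touch the values below. The quadriceps identity held in all groups, with 7 muscle fibre markers summing to between 24100 and 150000 CPM per library. Replicate 2 stood apart among the PE-treated libraries of both strains, with the lowest sums of muscle fibre markers of all libraries (38800 CPM in B6 and 24100 in MRL) and the highest sums of 6 macrophage markers (4790 and 4130 CPM). The counts of called genes that rest on PE-treated muscle are therefore also given without these libraries. Reads of both strains were quantified against the C57BL/6J reference, and the part of sequence differences between the strains in the values was not tested. In bulk tissue, fewer cells of a type and less RNA per cell cannot be told apart.

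Of the 61 members, 56 were above a count of 0 in all 24 libraries and 5 were at 0 in at least 1 library. Mean levels over the 24 libraries ran from -1.69 to 5.93 with a median of 2.54. PE-treated B6 muscle had the highest of the 8 group means for 41 of the 61 members, against 25.2% of all genes, and uninjured MRL muscle the lowest for 31, against 17.6%. Within B6 the PE group had the highest mean for 46 members (35.8% of all genes), and within MRL for 52 (43.5% of all genes). Each gene's level was set to its own mean over all libraries, and the median over the members was then taken. It was highest in PE-treated B6 muscle, at 0.74, 1.44 and 0.79 in the 3 libraries. In PE-treated MRL muscle the libraries lay at 0.12, 0.79 and 0.22. The 3 uninjured MRL libraries lay at -0.88, -0.33 and -1.14.

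**Figure D1:**
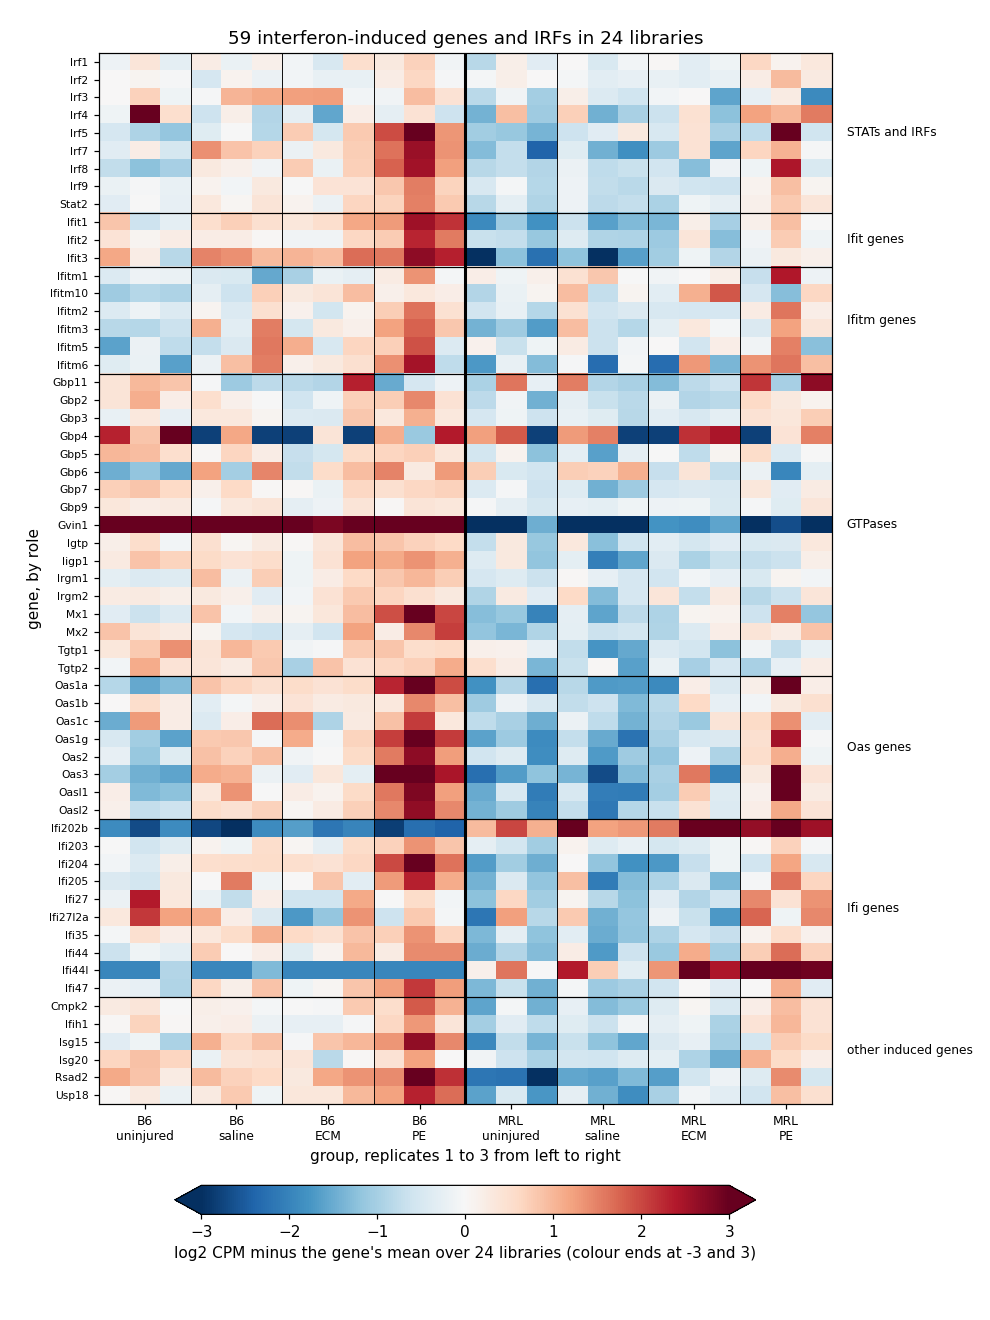
Level of 59 members (lines of the map, ordered by role) in the 24 libraries (columns, 3 per group), as log2 CPM minus the gene's mean over all libraries, with red above and blue below that mean. Red fills most of the PE-treated B6 columns, where the median over members was 0.74, 1.44 and 0.79, and blue most MRL columns outside PE, while Ifi202b and Ifi44l run the opposite way between the strains.

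The first question was whether the strains differ in these genes at all, taken as the mean of the strain differences in the 4 conditions. Of the 61 members, 37 were lower in MRL and 2 were higher at an adjusted p under 0.05 (limma on the deposited log2 CPM, Benjamini-Hochberg over all genes), against 7.87% of all genes lower and 7.37% higher. The median difference of the members was -0.70, while that of all genes was -0.01. The mean was lower in MRL for 53 of the 61 members, against 51.2% of all genes. Leaving out 1 library at a time gave 35 to 44 called members (12.5% and 32.7% of all genes called in either direction). Leaving out PE replicate 2 of both strains gave 43 (28.4% of all genes). By role, 5 of 11 STATs and IRFs, 3 of 3 Ifit genes, 0 of 6 Ifitm genes, 12 of 17 GTPases, 6 of 8 Oas genes, 5 of 10 Ifi genes and 6 of 6 other induced genes were lower, and both higher genes were Ifi genes.

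**Figure D2:**
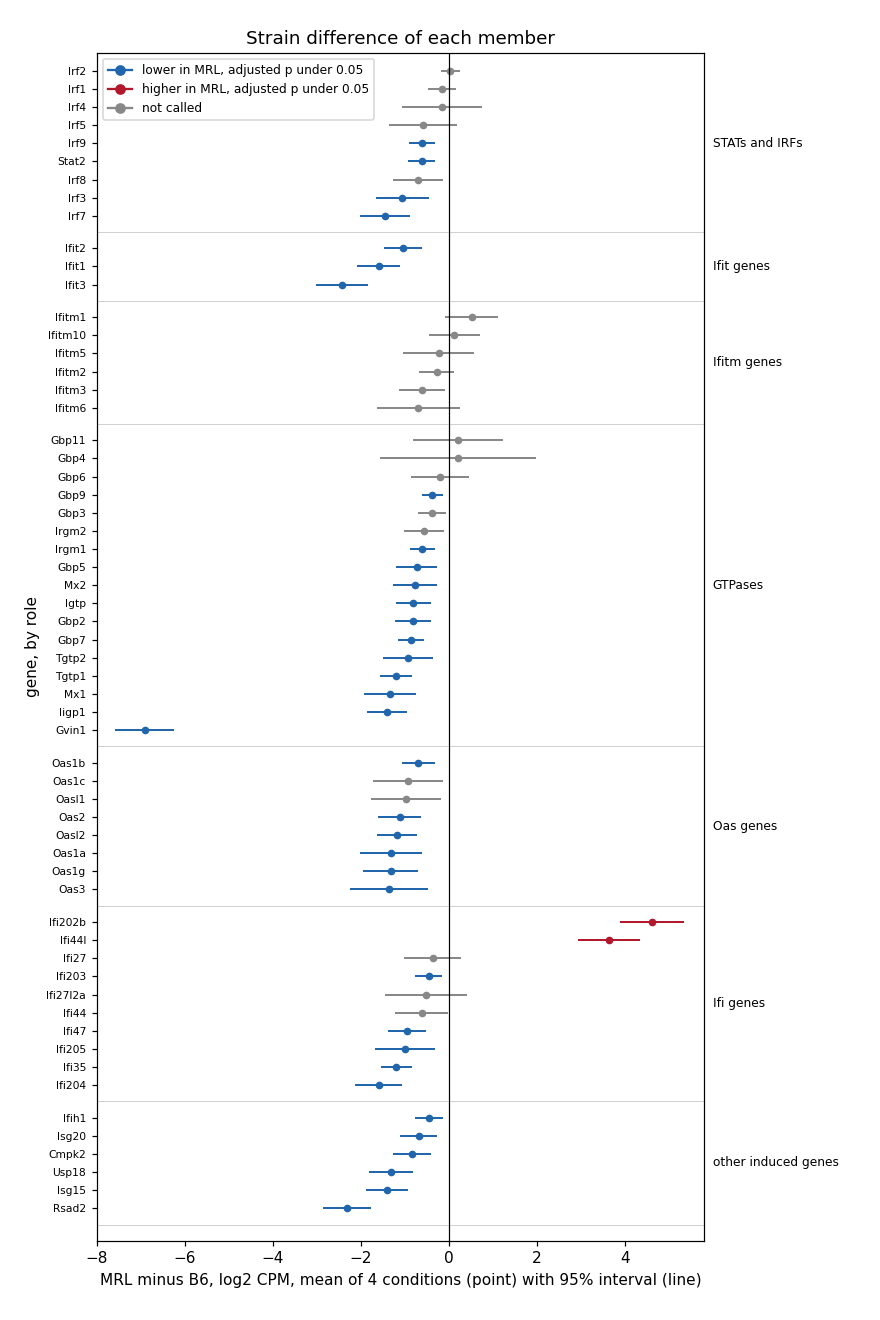
Difference in log2 CPM between MRL and B6 for 59 members (vertical axis, by role), as the mean over the 4 conditions (points) with its 95% interval (lines), blue for genes called lower, red for genes called higher and grey for the rest. Blue points fill every role but the Ifitm genes, Gvin1 lies farthest to the left at -6.91, and Ifi202b (4.61) and Ifi44l (3.63) lie alone on the right.

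Among the transcription factors Irf7, Irf3, Stat2 and Irf9 were lower in MRL muscle, and Irf1 and Irf2 were not called. Stat2, a part of the complex that binds the ISRE, lay at 3.66, 3.98 and 3.74 in uninjured B6 muscle and at 3.16, 3.69 and 3.10 in uninjured MRL muscle. With saline it lay at 4.30, 4.04 and 4.36 in B6 and at 3.84, 3.20 and 3.27 in MRL. With PE it lay at 4.66, 5.51 and 4.78 in B6 and at 4.15, 4.78 and 4.36 in MRL. The strains did not overlap with saline, and the highest MRL library reached the lowest B6 library in the other 3 conditions. Averaged over the conditions Stat2 was lower by 0.62 on the log2 scale (SE 0.14, adjusted p = 0.00462, limma). Irf9, which gives that complex its DNA specificity, was lower by 0.61 (SE 0.13, adjusted p = 0.00285, limma).

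Irf7, which amplifies type I interferon production and is itself interferon-induced, showed a wider gap. In uninjured muscle it lay at 2.70, 3.27 and 2.52 in B6 and at 1.74, 2.33 and 0.63 in MRL. With saline it lay at 4.41, 3.90 and 3.74 in B6 and at 2.67, 1.59 and 1.19 in MRL. With PE it lay at 4.68, 5.63 and 4.40 in B6 and at 3.68, 4.09 and 3.02 in MRL. The strains did not overlap in these conditions, but did with ECM (2.86, 3.33 and 3.77 in B6, 1.96, 3.49 and 1.45 in MRL). The mean difference was -1.45 (SE 0.26, adjusted p = 0.000589, limma). Irf3, the constitutive factor downstream of nucleic acid sensors, ran from 0.95 to 2.34 in B6 and from -0.82 to 1.34 in MRL and differed by -1.06 (SE 0.28, adjusted p = 0.0135, limma). Irf1, an early target of interferon gamma, ran from 3.82 to 4.98 in B6 and from 3.46 to 4.92 in MRL, overlapped in all 4 conditions and differed by -0.15 with a 95% interval of -0.44 to 0.14 (adjusted p = 0.477, limma). Irf2, an antagonist of Irf1, differed by 0.04 with an interval of -0.16 to 0.24. Irf8, a factor of the myeloid lineage, differed by -0.70 (SE 0.26, adjusted p = 0.0759, limma) and did not pass the test. Irf5 and Irf4, known from macrophages and from lymphocytes, differed by -0.58 and -0.16 and were not called (adjusted p = 0.27 and 0.816, limma).

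The Ifit genes, whose products bind viral RNA, were lower in MRL muscle over the 4 conditions in 3 of 3 cases. Ifit3 lay at 3.65, 2.70 and 1.65 in uninjured B6 muscle and at -0.64, 1.26 and 0.24 in uninjured MRL muscle. With saline it lay at 3.98, 3.86 and 3.43 in B6 and at 1.28, -0.84 and 0.85 in MRL, and with ECM at 3.51, 3.42 and 4.16 in B6 and at 1.43, 2.35 and 1.61 in MRL. With PE it lay at 4.06, 5.16 and 4.81 in B6 and at 2.32, 2.79 and 2.64 in MRL. No MRL library reached a B6 library of the same condition, and the mean difference was -2.42 (SE 0.27, adjusted p = 2.19e-06, limma). Ifit3 has a near-identical copy (taken here as 90% identity or more on 50% or more of the transcript), I830012O16Rik, and the reads of both cannot be split with certainty. Summed with this copy the difference was -0.89 (adjusted p = 0.000755, limma), and the one in uninjured muscle was -0.18 and no longer called (adjusted p = 0.919, limma).

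Ifit1 had group means (± SD, n = 3) of 1.48 ± 0.77, 2.07 ± 0.13, 2.17 ± 0.44 and 3.50 ± 0.65 in uninjured, saline-, ECM- and PE-treated B6 muscle. The MRL means were -0.09 ± 0.46, 0.31 ± 0.50, 0.77 ± 0.81 and 1.85 ± 0.49. The libraries of the strains did not overlap in any condition, and Ifit1 differed by -1.60 (SE 0.23, adjusted p = 4.31e-05, limma). Ifit2 differed by -1.04 (SE 0.20, adjusted p = 0.00101, limma).

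The Ifitm genes, some of which encode membrane proteins that hinder virus entry, were not called in either direction. Ifitm3 lay at 4.60, 4.58 and 4.79 in uninjured B6 muscle and at 4.01, 4.37 and 3.75 in uninjured MRL muscle, without overlap. With saline it spread widely in both strains (6.49, 5.11 and 6.96 in B6, 6.34, 4.78 and 4.56 in MRL), and the strains overlapped. Its mean difference was -0.61 with a 95% interval of -1.11 to -0.11 (adjusted p = 0.088, limma). Ifitm1 had the opposite sign, 0.52, with an interval of -0.06 to 1.10 (adjusted p = 0.208, limma).

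Among the GTPases, which restrict pathogens in vacuoles and in the cytosol, Gvin1 separated the strains most. It lay between 3.76 and 5.33 in the 12 B6 libraries. In MRL it was at a count of 0 in 2 of 3 uninjured, 3 of 3 saline- and 2 of 3 PE-treated libraries, and at -0.86, -0.92 and -0.64 with ECM. With saline the level was at least 161-fold lower in MRL, taking 3 counts per library as the floor, and the fitted mean difference of -6.91 depends on the prior count of the values. Gvin1 has a copy of identical sequence, Gvin2, so that its reads cannot be assigned to a single locus.

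Gbp2, a guanylate-binding protein, lay at 3.83, 4.52 and 3.63 in uninjured B6 muscle and at 2.65, 3.34 and 1.99 in uninjured MRL muscle. With saline it lay at 3.95, 3.58 and 3.42 in B6 and at 3.16, 2.77 and 2.63 in MRL. The strains did not overlap in these conditions and overlapped with ECM and with PE, and the mean difference was -0.82 (SE 0.18, adjusted p = 0.0043, limma). Gbp7 differed by -0.86 (SE 0.13, adjusted p = 7.82e-05, limma) and did not overlap in any condition. Gbp7 has a pseudogene copy of identical sequence. Gbp4, Gbp6, Gbp9 and Gbp11 are more than 90% identical to each other over most of the shorter transcript and are uncertain one by one. Of these, Gbp9 was called lower, by 0.38 on the log2 scale (adjusted p = 0.0172, limma), but summed with the other three it differed by -0.33 and was not called (adjusted p = 0.155, limma). Alone, Gbp6 differed by -0.21 (adjusted p = 0.663, limma).

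Irgm1, an immunity-related GTPase of autophagy, had B6 means of 4.32 ± 0.06, 5.18 ± 0.59, 4.91 ± 0.36 and 5.53 ± 0.14 and MRL means of 4.17 ± 0.12, 4.44 ± 0.27, 4.39 ± 0.24 and 4.54 ± 0.29 (SD, n = 3, uninjured, saline, ECM and PE). The strains did not overlap with PE and overlapped in the other conditions, and the mean difference was -0.60 (SE 0.12, adjusted p = 0.00194, limma). Iigp1, Tgtp1 and Mx1, 3 further GTPases, differed by -1.40, -1.21 and -1.34 (adjusted p = 6.14e-05, 2.73e-05 and 0.00206, limma). Tgtp1 and Tgtp2 are near-identical copies, and summed with each other and Gm12185 the difference was -1.26 (adjusted p = 0.000668, limma).

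The Oas genes, some of which sense double-stranded RNA and switch on RNase L, had a median difference of -1.15, and 6 of 8 were called. Oas2 lay at 3.66, 3.49 and 3.69 in saline-treated B6 muscle and at 2.41, 1.08 and 1.72 in saline-treated MRL muscle, without overlap, and at 2.53, 1.66 and 2.44 against 2.21, 2.42 and 0.93 in uninjured muscle, with overlap. Oas2 and Oasl2 differed by -1.12 and -1.18 (adjusted p = 0.00183 and 0.000472, limma), and Oas3 by -1.36 (adjusted p = 0.0322, limma). Oas3 was not called in 10 of 30 alternatives, most of which left out 1 library. Oas1a and Oas1g, near-identical copies, differed by -1.31 and -1.32, and by -1.34 when summed (adjusted p = 0.00498, limma). Oasl1 and Oas1c were not called at -0.97 and -0.92.

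The other induced genes were lower in MRL in 6 of 6 cases. Rsad2, which encodes the antiviral enzyme viperin, lay at 3.68, 3.40 and 2.80 in uninjured B6 muscle and at 0.37, 0.34 and -0.62 in uninjured MRL muscle. With saline it lay at 3.50, 3.24 and 3.14 in B6 and at 0.98, 0.91 and 1.21 in MRL, and with ECM at 2.85, 3.70 and 3.90 in B6 and at 0.88, 1.99 and 2.40 in MRL. The strains did not overlap there, nor with PE (3.95, 5.58 and 4.73 in B6, 2.16, 3.95 and 2.02 in MRL), where the highest MRL library came up to the lowest B6 library. The mean difference was -2.32 (SE 0.25, adjusted p = 1.12e-06, limma).

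Isg15, a ubiquitin-like modifier, lay at 2.07, 1.62 and 1.88 in saline-treated B6 muscle and at 0.34, -0.20 and -0.56 in saline-treated MRL muscle. With PE it lay at 2.32, 3.66 and 2.45 in B6 and at 0.45, 1.75 and 1.56 in MRL. It did not overlap with saline, ECM or PE and overlapped in uninjured muscle, with a mean difference of -1.40 (SE 0.22, adjusted p = 0.000138, limma). Usp18, which removes ISG15 and restrains the interferon receptor, differed by -1.32, Cmpk2 by -0.83, Isg20 by -0.68 and Ifih1, the RNA sensor MDA5, by -0.45 (adjusted p = 0.000469, 0.0059, 0.0179 and 0.0343, limma). Ifih1 was not called in 10 of 31 alternatives, in each of which 1 library was left out.

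The Ifi genes, a set named for their induction rather than for a shared function, ran both ways. The HIN-200 genes, whose products bind DNA, lie side by side on chromosome 1, with Ifi202b (chr1:173790134-173810414, GRCm39, minus strand) between Ifi203 (chr1:173747971-173770436) and Ifi205 (chr1:173839549-173859456). Ifi203 and Ifi205 were lower in MRL, by 0.46 and 1.00 on the log2 scale (adjusted p = 0.0243 and 0.0379, limma), while Ifi202b between them was higher. Ifi205 was not called in 13 of 31 alternatives, in each of which 1 library was left out. Ifi204 of the same cluster differed by -1.60 and Ifi35 by -1.19 (adjusted p = 0.000119 and 1.53e-05, limma), and neither overlapped in any condition. Ifi203, Ifi204 and Ifi205 have near-identical copies (Mndal among them), and summed with these they differed by -0.65, -1.38 and -1.41 (adjusted p = 0.00216, 0.000143 and 4.64e-05, limma). Ifi202b, a HIN-200 member that lacks the pyrin domain of its relatives, ran from -3.65 to -2.00 in B6 and from 0.59 to 4.84 in MRL. It was higher in MRL in each condition without overlap, by 4.61 on average (SE 0.33, adjusted p = 2.84e-09, limma). Ifi44l was at a count of 0 in 10 of the 12 B6 libraries and ran from -2.02 to 2.24 in MRL, again without overlap. Ifi44, its relative, ran the other way without passing the test (-0.61, adjusted p = 0.138, limma). Against the floor of 3 counts per library Ifi44l was at least 14.8-fold higher in MRL with ECM and at least 27.9-fold higher with PE.

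**Figure D3:**
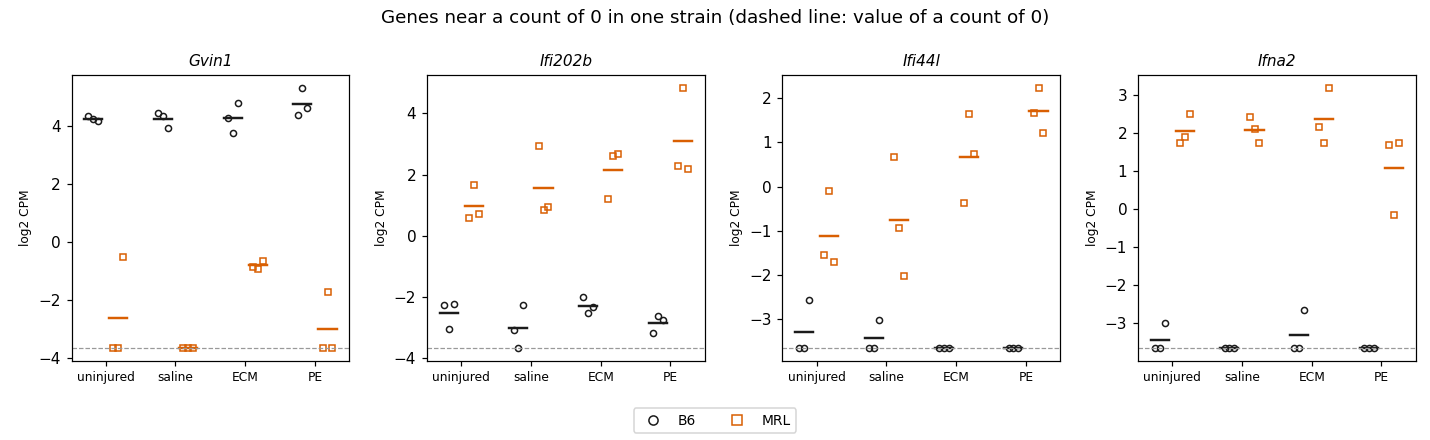
Level (log2 CPM) of Gvin1, Ifi202b, Ifi44l and the interferon gene Ifna2 in each library (points, black circles for B6 and orange squares for MRL) with group means (short lines) in the 4 conditions. The dashed line marks a count of 0 (-3.65), on or near which the B6 points of Ifi202b, Ifi44l and Ifna2 lie. The MRL points of Gvin1 lie on it or above it, with ECM at -0.86, -0.92 and -0.64. Uninjured MRL replicate 3 (-0.52) and PE-treated MRL replicate 2 (-1.72) also lie above it.

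In all 4 conditions at once, 9 members were lower in MRL without any overlap between the strains, which 1.37% of all genes were. These are Gbp7, Gvin1, Ifi204, Ifi35, Ifit1, Ifit3, Rsad2, Tgtp1 and Usp18. The 2 members higher without overlap in all 4 conditions, Ifi202b and Ifi44l, compare with 1.07% of all genes. Both were below 1 CPM in every B6 library and so passed the filter of the matrix through the MRL libraries alone. Gvin1 was below 1 CPM in every MRL library and passed it through the B6 libraries alone. For these genes the filter bears on the direction of the difference. Of the 61 members, 36 have no near-identical copy, and of these 22 were lower and 2 higher, with a median of -0.69. The 24 members with the ISRE letters in their promoter had a median of -0.84 and 18 were lower. Of the 21 members with a promoter window without these letters, 9 were lower and 2 higher, with a median of -0.68, and of the 16 without a window 10 were lower, with a median of -0.63.

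Within single conditions the medians of the members ran from -0.91 to -0.61, and fewer genes passed the test at 3 libraries per group. In uninjured muscle 4 members were lower in MRL (Gvin1, Rsad2, Ifit3 and Gbp7) and 1 was higher (Ifi202b), against 1.25% and 1.35% of all genes, with a median of -0.78. Rsad2 differed by -3.27 there (SE 0.50, adjusted p = 0.000343, limma). After the control injury 12 members were lower and 2 higher, against 1.45% and 1.07% of all genes, with a median of -0.91. The lower ones were Gvin1, Ifit3, Rsad2, Irf7, Tgtp1, Isg15, Oas2, Iigp1, Oasl2, Ifit1, Ifi35 and Gbp7. Ifit3 differed by -3.33 (SE 0.54, adjusted p = 0.000723, limma), Irf7 by -2.20 (SE 0.52, adjusted p = 0.0221, limma) and Isg15 by -2.00 (SE 0.44, adjusted p = 0.0132, limma). Without replicate 2 of the MRL saline group 5 members were called (1.7% of all genes), and without its replicate 1, 17 were (2.78%).

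With ECM 2 members were lower (Gvin1 and Ifi35, the latter by 1.34 on the log2 scale, adjusted p = 0.0187, limma) and 2 were higher (Ifi202b and Ifi44l), against 1.38% and 1.27% of all genes, with a median of -0.61. Ifi35 was not called with ECM when replicate 1 or 3 of either strain was left out, and neither Ifi35 nor Ifi44l was called with the replicate number fitted as a block. With PE 8 members were lower and 2 higher, against 1.74% and 1.6% of all genes, with a median of -0.73. The lower ones were Gvin1, Mx1, Ifi204, Ifit3, Rsad2, Ifit1, Iigp1 and Irgm1. Mx1 lay at 3.52, 4.78 and 3.59 in B6 and at 0.97, 3.09 and 0.42 in MRL, without overlap, and differed by -2.47 (SE 0.55, adjusted p = 0.0133, limma). The replicate numbers of the PE libraries went together between the strains. With the number fitted as a block 4 members were called, 3 lower (Gvin1, Ifi204 and Ifit3) and 1 higher (Ifi44l), against 0.586% of all genes. Without replicate 2 of the MRL PE group 24 members were called (24.6% of all genes), without replicate 2 of the B6 PE group 3 (2.08%), and without both 15 (12 lower and 3 higher, 16% of all genes).

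The second question was what the implants did within each strain. Of the implant comparisons within a strain, PE against saline in B6 was the one that called members. There, 8 members were higher and 0 lower, against 5.37% and 0.6% of all genes, and the median of the members was 0.67 while that of all genes was 0.02. The 8 were Irf5, Irf9, Ifit2, Mx1, Mx2, Oas1g, Oas3 and Ifi204. A further measure without a test gave 28 members higher without overlap, against 18.7% of all genes. These calls depend on single libraries, since 0 members were called without replicate 1 or without replicate 2 of the B6 PE group. All 8 also lost their call when any single library of the B6 saline group was left out. With all libraries 26 members had an unadjusted p under 0.05 in limma, against 16.5% of all genes higher.

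Oas3 lay at 3.62, 5.68 and 3.07 in PE-treated and at 1.73, 1.65 and 0.42 in saline-treated B6 muscle, and differed by 2.86 (SE 0.83, adjusted p = 0.0475, limma). Irf5, which drives inflammatory cytokines in macrophages, lay at 5.39, 6.49 and 4.76 with PE and at 3.09, 3.43 and 2.59 with saline, a difference of 2.51 (SE 0.71, adjusted p = 0.0445, limma). Mx1 lay at 3.52, 4.78 and 3.59 with PE and at 2.44, 1.52 and 1.76 with saline, a difference of 2.06 (SE 0.55, adjusted p = 0.0358, limma). In none of these genes did the groups overlap, and replicate 2 was the highest PE library in each. Without it the differences of Oas3, Irf5 and Mx1 were 2.08, 2.04 and 1.65 and were not called (adjusted p = 0.363, 0.309 and 0.278, limma). Replicate 2 was the highest of the PE-treated B6 libraries for 51 of the 61 members, against 46.7% of all genes.

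Irf8 lay at 5.43, 6.18 and 4.89 with PE and at 3.94, 3.80 and 3.55 with saline in B6, without overlap, and differed by 1.74 (SE 0.52, adjusted p = 0.0541, limma). Irf1 differed by 0.23 with overlap (adjusted p = 0.634, limma). The 6 macrophage markers summed to 2580, 4790 and 1320 CPM in the PE-treated and to 300, 272 and 269 CPM in the saline-treated B6 libraries, and 5 neutrophil markers to 54.6, 130 and 16.8 against 3.04, 2.13 and 2.90 CPM. Their part in the B6 difference was not tested.

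In MRL no gene of the whole table was called between PE and saline (0 members, 0% of all genes, limma). The median difference of the members was 0.99 (0.06 for all genes), 39 members were higher and 1 lower at an unadjusted p under 0.05, against 12.8% and 10.5% of all genes, and 32 were higher without overlap, against 10.8%. Oasl2 lay at 3.58, 4.52 and 3.79 with PE and at 2.67, 1.24 and 2.52 with saline, without overlap (difference 1.82, SE 0.41, adjusted p = 0.0901, limma). Ifit3 lay at 2.32, 2.79 and 2.64 with PE and at 1.28, -0.84 and 0.85 with saline, without overlap (difference 2.15, SE 0.54, adjusted p = 0.097, limma). Without replicate 1 of the MRL saline group, 20 members were called (limma), and 5.47% of all genes.

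**Figure D4:**
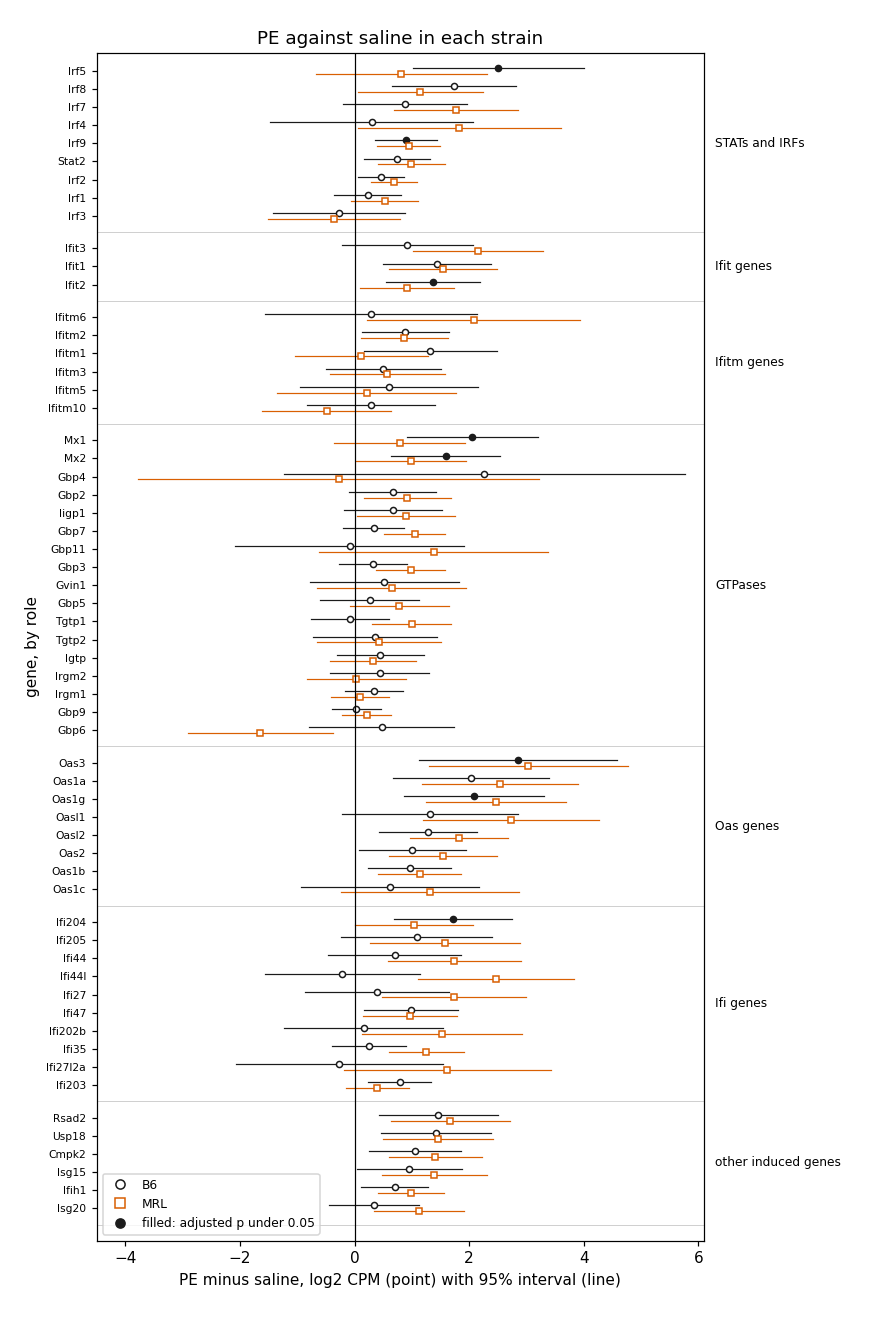
Difference in log2 CPM between PE- and saline-treated muscle for 59 members (vertical axis, by role) in B6 (black circles) and MRL (orange squares), with 95% intervals (lines) and filled symbols for an adjusted p under 0.05. Most points of both strains lie to the right of 0, with medians of 0.67 in B6 and 0.99 in MRL, and in MRL the Oas genes had the largest median of the roles, 2.15.

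Replicate 2 of the PE-treated MRL group stood apart from the other two. It was the highest of the 3 libraries for 39 members (45.7% of all genes) and the lowest for 14 (43.6% of all genes). Irf5 lay at 2.69, 6.56 and 2.86 in the PE-treated MRL libraries against 2.82, 3.10 and 3.74 with saline, and Irf8 at 3.53, 6.08 and 3.19 against 3.48, 2.90 and 2.98. Both were thus high only in replicate 2, the library in which the macrophage markers summed to 4130 CPM, while they summed to 209 and 214 CPM in replicates 1 and 3 and to 416, 126 and 177 CPM with saline. Irf7 (3.68, 4.09 and 3.02 against 2.67, 1.59 and 1.19) and Isg15 (0.45, 1.75 and 1.56 against 0.34, -0.20 and -0.56) were above the saline libraries in all 3 PE libraries.

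Without replicate 2 of the PE-treated MRL group the median over the members was 0.97, and 0 members were called (limma). In replicates 1 and 3 the macrophage marker sums lay within the range of the saline libraries. In these 2 libraries adipocyte markers summed to 1820 and 1060 CPM, against 396, 89.4 and 126 CPM with saline, and their part in the difference was not tested. With all libraries 4 members had a lower mean with PE (Gbp4, Gbp6, Ifitm10 and Irf3), of which Gbp6 alone did not overlap. It lay at 2.91, 1.13 and 2.81 with PE and at 3.84, 3.80 and 4.16 with saline, a difference of -1.64 (SE 0.60, adjusted p = 0.137, limma).

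**Figure D5:**
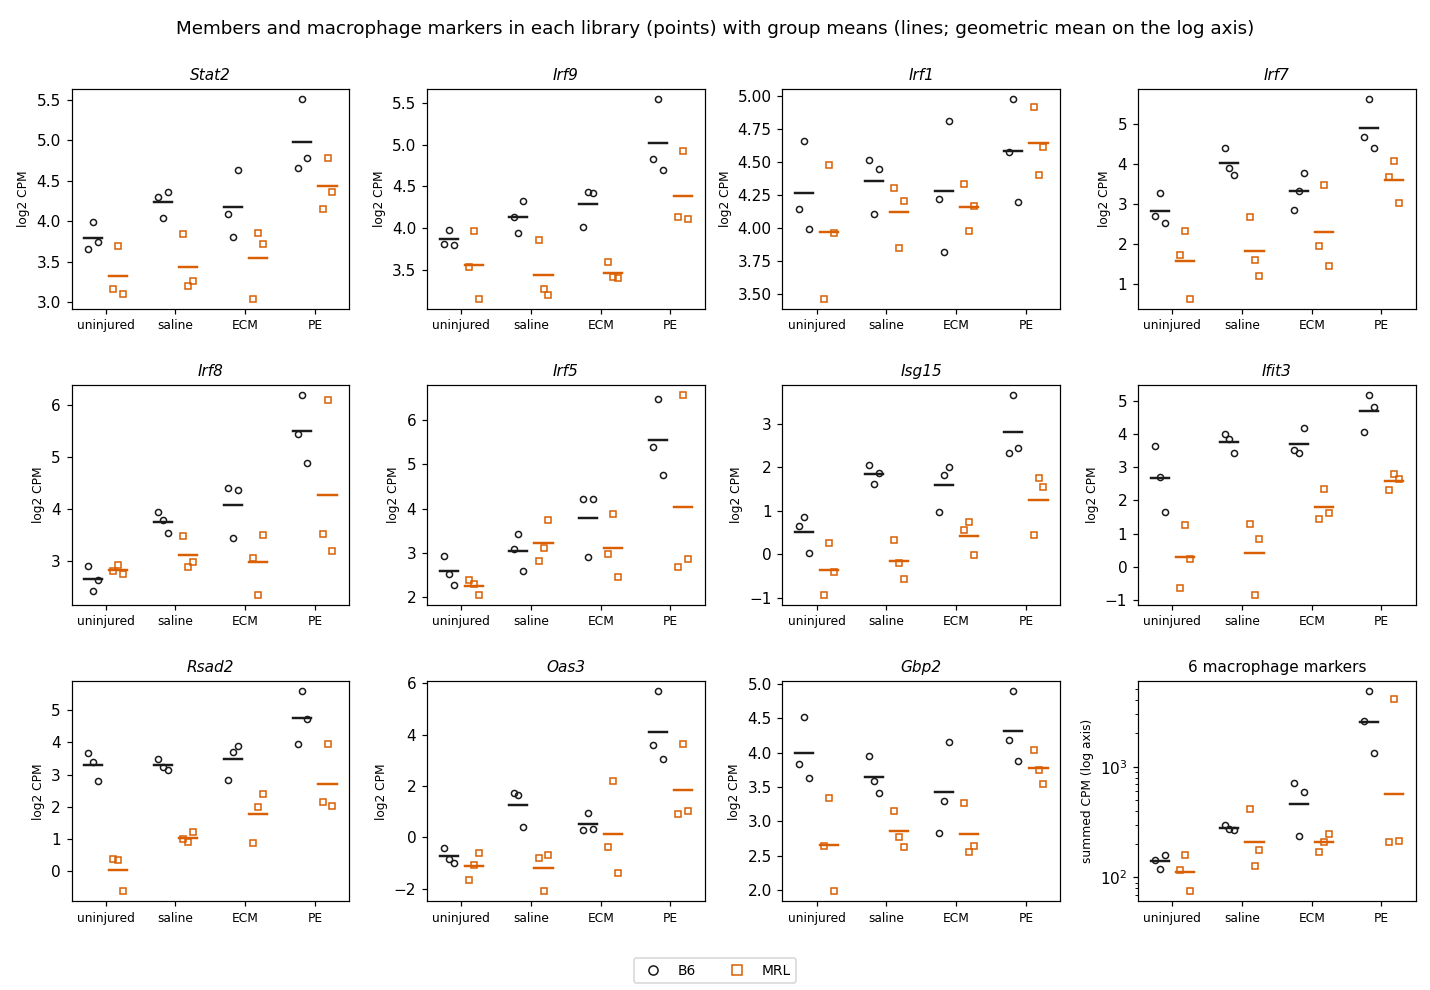
Level (log2 CPM) of 11 members in each library (points, black circles for B6 and orange squares for MRL) with group means (short lines) in the 4 conditions, and in the last panel the summed CPM of 6 macrophage markers on a log axis. Irf7, Isg15 and Ifit3 were higher with PE than with saline in all 3 MRL libraries, while Irf5 and Irf8 were high in MRL only in the single PE library where the macrophage markers reached 4130 CPM.

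Averaged over both strains, a comparison added after the values were seen, 34 members were higher with PE than with saline and 0 lower, against 15% and 9.17% of all genes, with a median of 0.87 (0.05 for all genes). By role these were 7 of 11 STATs and IRFs, 3 of 3 Ifit genes, 1 of 6 Ifitm genes, 5 of 17 GTPases, 7 of 8 Oas genes, 6 of 10 Ifi genes and 5 of 6 other induced genes. The Oas genes had the largest median of the roles, 1.79, with Oas3 at 2.94 (SE 0.59, adjusted p = 0.00592, limma) and Oas1a at 2.28 (SE 0.46, adjusted p = 0.00596, limma). Rsad2 differed by 1.57, Ifit3 by 1.54, Ifit1 by 1.49, and Isg15 by 1.17 (adjusted p = 0.00831, 0.0117, 0.00733 and 0.0141, limma). Of the nucleic acid sensors among the members, Oas2 differed by 1.28 and Ifih1 by 0.84 (adjusted p = 0.0113 and 0.00953, limma). Of the immunity-related GTPases, Irgm1, Irgm2, Igtp and Tgtp2 were not called, with differences from 0.22 to 0.39. That range leaves out Iigp1 and Tgtp1. The mean of Iigp1 was 4.89 with PE and 4.22 with saline in B6, and 3.31 and 2.41 in MRL. For Tgtp1 the means were 2.56 and 2.64 in B6, and 1.57 and 0.57 in MRL.

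With the replicate number as a block, 1 member and 0.685% of all genes were called. Without PE replicate 2 of both strains 11 members were called higher, against 5.48% of all genes called in either direction, and the median was 0.74. Among them were Gbp7, Ifit1, Irf8, Irf9, Mx2, Oas1a, Oas1g, Oas3, Oasl2 and Rsad2. With all libraries, the 24 members with the ISRE letters had a median of 0.82 and 16 were higher. Of the 21 with a window without them 11 were higher (median 1.06), and of the 16 without a window 7 (median 0.89). Without PE replicate 2 of both strains these counts were 6, 3 and 2, with medians of 0.60, 0.74 and 0.85.

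PE against ECM, which shares the PE libraries, called 0 members in either strain (limma; 0.226% of all genes in B6 and 0% in MRL), with 30 members higher and 0 lower in B6 and 25 higher and 2 lower in MRL at an unadjusted p under 0.05, against 13.5%, 7.03%, 15.6% and 12.8% of all genes. The medians were 0.79 in B6 and 0.86 in MRL, and 0 members were called without replicate 2 of the PE group in either strain. ECM against saline called 0 members (limma; 0.0283% of all genes in B6 and 0.00706% in MRL), with 0 in B6 and 5 in MRL at an unadjusted p under 0.05, against 3.99% and 3.55% of all genes. The medians were -0.07 in B6 and 0.19 in MRL. In B6 the differences between ECM and saline ran from -0.81 to 0.85 over all 61 members. Irf5, for example, lay at 4.22, 2.91 and 4.22 with ECM and at 3.09, 3.43 and 2.59 with saline.

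The control injury against uninjured muscle called 0 members in either strain (limma, 0% of all genes). At an unadjusted p under 0.05, 12 members were higher and 2 lower in B6 and 1 higher and 3 lower in MRL, against 6.32%, 6.05%, 1.76% and 1.34% of all genes. In B6 the Oas genes had a median of 1.37, and Oas1a lay at 0.82, 0.15 and 0.39 in uninjured and at 2.54, 2.34 and 2.16 in saline-treated muscle, without overlap. In MRL Oas1a lay at -0.12, 0.81 and -0.59 and at 0.86, -0.02 and 0.01, with overlap. Irf7 lay above its uninjured range in all 3 saline-treated B6 libraries (3.74 to 4.41 against 2.52 to 3.27), and the MRL libraries overlapped. Whether the strains differ in these responses was tested as an interaction, in which 0 members and 0% of all genes were called (limma). At an unadjusted p under 0.05, 3 of 61 members differed between the strains in the response to the control injury (4.03% of all genes), 3 in ECM against saline (2.26%), 4 in PE against saline (4.34%) and 3 in PE against ECM (3.69%).

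Other genes of the pathway were counted from lists compiled with earlier results of these data known. For the strain difference over the 4 conditions, 5 of 15 sensors and adaptors were lower in MRL and 0 higher, against 7.87% and 7.37% of all genes. These were Zbp1, a sensor of Z-form nucleic acid (by 1.36 on the log2 scale), Ikbke, Trim25, Myd88 and Ddx58. Of 35 further induced genes 17 were lower and 0 higher, and the mean was lower in MRL for all 35, against 51.2% of all genes. They included the chemokines Cxcl10 (-2.58, adjusted p = 0.00102, limma) and Cxcl9 (-1.75, adjusted p = 0.00109, limma), which draw T cells, and the virus tether Bst2 (-1.22, adjusted p = 0.00015, limma). Of 7 receptors and kinases in the matrix 0 were called, and Ifnar1 and Ifnar2, the type I receptor, differed by -0.29 and -0.31 (adjusted p = 0.202 and 0.398, limma). Of 8 negative regulators 1 was lower, Ptpn6 (-1.23, adjusted p = 0.0492, limma), against 7.87% of all genes, and this 1 gene does not describe the list.

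Of 8 interferon genes on the list, Ifna2 was the only one in the filtered matrix. It was at a count of 0 in 10 of 12 B6 libraries and at or below -2.66 in the other two. In MRL it lay at 1.74, 1.89 and 2.50 in uninjured, 2.42, 2.09 and 1.73 in saline-, 2.15, 1.72 and 3.18 in ECM- and 1.69, -0.16 and 1.73 in PE-treated muscle. Ifna2 was thus higher in MRL in each condition without overlap (mean difference 5.41, adjusted p = 1.88e-12, limma). It passed the filter of the matrix through the MRL libraries alone, so the filter bears on the direction of this difference. The other listed interferon genes were not in the matrix and could not be compared. The opposite direction of Ifna2 to most induced genes therefore does not describe the interferons as a set. The interferon alpha genes resemble each other in sequence, and copies of Ifna2 were not searched here.

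Between PE and saline in B6, 6 of 15 sensors and adaptors were higher, against 5.37% of all genes. These were Ticam1, Trim25, Tmem173, which encodes STING, Mb21d1, which encodes cGAS, Aim2 and Ikbke. Of the 35 further induced genes 4 were higher (Samd9l, Parp14, Cd274 and Epsti1), against the same 5.37%. Of the 7 receptors and kinases 1 was higher, Il10rb (2.34, adjusted p = 0.0222, limma), and a count of 1 gene does not describe that list. These calls depend on single libraries too, since 2 of the 14159 genes were called without replicate 2 of the B6 PE group (0.0141%) and 7 without its replicate 1 (0.0494%), and without replicate 2 none of the sensors, adaptors, receptors or further induced genes was called, with medians of 0.87 for the sensors and adaptors and 0.49 for the further induced genes (limma). In MRL 0 of these genes were called, as in the whole table. At an unadjusted p under 0.05, 30 of the 35 further induced genes were higher with PE, against 12.8% of all genes. Cxcl9 differed there by 3.12 (adjusted p = 0.085, limma).

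Markers of other cells moved with the strain as well. Of 6 T cell markers in the matrix 3 were lower in MRL and 0 higher over the 4 conditions, against 7.87% and 7.37% of all genes. Cd3e differed by -2.45 (adjusted p = 2.15e-05, limma) and Cd3d by -2.02 (adjusted p = 4e-06, limma). The sums of the T cell markers ran from 3.11 to 12.4 CPM in B6 and from 1.83 to 7.04 CPM in MRL. Of 6 macrophage markers 1 was lower (Fcgr1, itself interferon-inducible, -1.30, adjusted p = 0.00657, limma), and of 5 neutrophil markers 0. At an unadjusted p under 0.05, 5 of the 6 macrophage markers (median -0.87) and 3 of the 5 neutrophil markers (median -0.93) were lower, against 16.1% of all genes. With PE the means of all 6 macrophage markers were lower in MRL (median -1.61), against 51.7% of all genes. Of these markers 0 were called and 4 had an unadjusted p under 0.05, against 9.56% of all genes lower. Of 5 neutrophil markers 2 were called lower, against 1.74% of all genes. S100a8 was lower by 3.30 and S100a9 by 4.77 on the log2 scale (adjusted p = 0.0439 and 0.0114, limma). In uninjured muscle the macrophage marker sums were 143, 120 and 161 CPM in B6 and 118, 158 and 75.6 CPM in MRL, with overlap. The part of T cells, macrophages and neutrophils in the strain difference was not tested.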

How the data were processed

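Bulk RNA-seq of 24 quadriceps libraries, which the methods of the study treat as independent samples, was deposited as log2 CPM values. The authors pseudoaligned reads with kallisto to the mouse transcriptome (GRCm39), summed transcripts to genes with tximport (length-scaled), kept genes above 1 CPM in at least 3 libraries, applied TMM scaling and took log2 CPM with edgeR's prior count of 2. Depth per library is not given by these values. The floor of -3.65 corresponds to a count of 0 at a mean effective library of 25149678 reads, so that 3 counts are 0.119 CPM, which covers counting error only.

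The study's voom model needs counts, so limma 3.58.1 (R 4.3.3) with an intensity trend was fitted to the log2 CPM of 14159 genes with 8 group means, 2-sided, with a call at a Benjamini-Hochberg adjusted p under 0.05. P-values measure the spread between these libraries. An entry with no gene name (1 in all) was dropped. The fit was tested on simulated data. Of the 61 members 59 are drawn, and the others are counted but not reported here one by one. Members, pathway and marker lists, and the rule for named genes (the called members with the largest changes plus textbook members) were chosen with earlier results of these data known. Same-numbered PE libraries correlated between the strains (0.105, 0.532 and 0.439 for the 3 numbers, from deviations from the group means), and no other comparison had all 3 above 0.1. Copies were found with BLAST 2.17.0 at 90% identity. Alternatives were a filter at a mean log2 CPM of 1, log2(CPM + 1), equal library totals, library weights, the replicate block and leaving out libraries.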

Additional observations from a re-analysis of the deposited data

How the results depend on the processing

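Over the 4 conditions the strain difference gave 35 to 44 called members when single libraries were left out (12.5% and 32.7% of all genes). Its median ran from -0.84 to -0.58 over all alternatives. The counts in single conditions depended more on libraries and settings. Leaving out 1 library at a time gave 3 to 8 called members in uninjured muscle, 5 to 17 with saline, 3 to 5 with ECM and 3 to 24 with PE. At the lower counts 2.01%, 1.7%, 1.94% and 2.08% of all genes were called. At the upper counts these shares were 2.01%, 2.78%, 1.82% and 24.6%. For PE against saline it gave 0 to 9 in B6, 0 to 20 in MRL and 21 to 37 over both strains. At the upper counts 9.05%, 5.47% and 29% of all genes were called, and at 21 members 7.64%. Saline against uninjured in B6 gave 0 to 3 (3.22% of all genes at 3). PE against ECM in MRL gave 0 to 11 (11 without MRL PE replicate 3, with 12.3% of all genes). The interactions of strain with PE against saline and against ECM gave 0 to 2, with 4.41% and 1.9% of all genes at 2. Testing only genes whose mean log2 CPM reached 1 removed low members. This left 3 (uninjured), 9 (saline), 1 (ECM) and 4 (PE) for the strains, with 1.92%, 1.86%, 2.02% and 2.08% of the genes tested. It left 5 for PE against saline in B6 (5.73%) and 4 for PE against ECM in MRL (2.04%). Library weights ran from 0.094 (MRL PE replicate 2) to 5.93 (B6 PE replicate 1). They gave 14, 32, 12 and 36 for the strains in the same order of conditions (6.2%, 16.3%, 15.3% and 45.7% of all genes). For saline against uninjured in B6 they gave 11 (7.6% of all genes). PE against saline gave 14 in B6 and 34 in MRL (24.7% and 19.9%), and PE against ECM 27 and 15 (26.3% and 14.6%). ECM against saline in MRL gave 1 (0.0777%). The interactions of strain with PE against saline and PE against ECM gave 9 and 5 (13.5% and 7.15% of all genes). On the log2(CPM + 1) scale PE against saline in B6 gave 13 (6.9% of all genes) and PE against ECM 1 (0.855% in B6, 0.184% in MRL). With equal library totals PE against ECM in MRL gave 6 (5.06%). With the replicate block the strains gave 2 with saline (0.643% of all genes) and 4 with PE (0.586%). PE against saline with the block gave 3 in B6 (3.13%) and 1 over both strains (0.685%). No other count moved by over 1.5 times with the block, though Ifi35 and Ifi44l lost their call with ECM. Only the PE libraries of the strains passed the check of pairing. Leaving out PE replicate 2 of both strains, chosen after seeing the data, gave 11 for PE against saline over both strains (5.48% of all genes). No called result reversed, while the median of ECM against saline in B6, where 0 members were called, ran from -0.27 to 0.06. Apart from the filter and the omissions, whose fewer genes or libraries are part of their construction, the cause of these shifts was not tested. Values near the floor (Gvin1, Ifi202b and Ifi44l) depend on the prior count. Within a single condition, with 3 libraries per group, differences that are small against the spread between libraries could go undetected.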
